A study of Mus musculus with 2 samples.

Results

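The 10 genes described here carry out antigen presentation on major histocompatibility complex (MHC) class II in the mouse. They are H2-Aa, H2-Ab1, H2-Eb1, Cd74, Ciita, H2-DMa, H2-DMb1, H2-DMb2, H2-Oa and H2-Ob. They were taken by gene symbol from a list, and all 10 were among the 32285 features of both count matrices. They were read across dendritic cells, macrophages, monocytes and B cells that were gated on markers, none of which is one of the 10 genes.

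The cells came from tumours of mice bearing B16-F0 melanoma, a line of mouse melanoma cells that grows when transplanted. Living leukocytes were sorted as CD45+ and DAPI- (DAPI enters dead cells) and loaded on the 10x Genomics 3' single-cell platform, which counts each captured RNA molecule once by a unique molecular identifier (UMI). There was 1 library from the genotype labelled WT (wild-type) and 1 from the genotype labelled KO (knockout). The knocked-out gene, the strain, the age and the number of animals are not given in the sources used here, so no gene could serve as a check of the genotype. The labels call the cell type TIL-Treg, while the sort took all CD45+ cells, and T-like cells were 31.5% of wild-type and 47.9% of knockout cells kept. With 1 library per genotype there is no replicate check and no p-value is given, and bracketed intervals are 95% intervals for counting error alone.

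Class II molecules are heterodimers of an alpha and a beta chain that show peptides from the endosome to CD4 T cells. In the endoplasmic reticulum the dimer binds the invariant chain, encoded by Cd74, which fills its groove and directs it to endosomes. There proteases trim the invariant chain and H2-DM releases the last fragment and lets stable peptides bind, a step that H2-O restrains. Transcription of H2-Aa, H2-Ab1, H2-Eb1 and Cd74 depends largely on the coactivator CIITA, which binds the factors RFX, CREB and NF-Y on a shared promoter module. Dendritic cells and B cells make CIITA constitutively, and in macrophages and monocytes interferon gamma induces it.

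The promoter module is shown because several genes of the group share it in sequence. RefSeq promoters of build GRCm38.p6, from 250 bases before to 50 after the transcript start, were matched by symbol for 7 of the 10 genes. In 5 of the 7, H2-Aa, H2-Eb1, H2-DMb1, H2-DMb2 and H2-Ob, the letters TGATGC or TGACGTCA (the X2 box and its palindromic form) were followed after 10 to 24 bases by GATTGG (the Y box, an inverted CCAAT). Capitals mark those letters and, where present, CTAGNAAC, part of the X1 box.
H2-Aa: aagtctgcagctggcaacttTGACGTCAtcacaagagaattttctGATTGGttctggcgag
H2-Eb1: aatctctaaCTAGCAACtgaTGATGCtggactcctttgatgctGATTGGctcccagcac
H2-DMb1: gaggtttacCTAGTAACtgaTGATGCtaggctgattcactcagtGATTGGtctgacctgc
H2-DMb2: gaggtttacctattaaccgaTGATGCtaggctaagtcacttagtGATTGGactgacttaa
H2-Ob: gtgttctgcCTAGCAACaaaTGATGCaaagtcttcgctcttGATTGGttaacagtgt
The stretches lie at chr17:34287857-34287917 on the minus strand for H2-Aa and, on the plus strand, at chr17:34305764-34305822 for H2-Eb1, chr17:34153085-34153144 for H2-DMb1, chr17:34145114-34145173 for H2-DMb2 and chr17:34238806-34238862 for H2-Ob. The first motif stood 74, 83, 86, 115 and 79 bases before the start in that order of listing, and the gap to GATTGG was 17, 17, 18, 18 and 15 bases.

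Searched on both strands, the arrangement occurred in 29 of 27025 gene promoters of the same length (0.107%), 6 of them class II genes. Its letters were chosen after these promoters had been looked at, so the count is a description. GATTGG alone was in 16.6% of promoters, TGATGC in 11.1%, CTAGNAAC in 3.67% and TGACGTCA in 1.88%. H2-Oa held GATTGG without the partner, and neither of the 2 windows listed for H2-DMa held the arrangement. H2-Ab1, Ciita and Cd74 were named only. The 8 H2 genes lie on chromosome 17, Ciita on chromosome 16 and Cd74 on chromosome 18.

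Cells were called by 10 classes of 7 or 8 markers each. A cell was assigned when it held at least 3 markers of a class and at least 2 more than of any other class, a rule called the margin gate here. The names end in -like because they rest on these markers alone. Of 11153 wild-type and 11131 knockout cells kept, 3626 and 432 were B-like (Cd79a, Ms4a1, Pax5), 126 and 148 cDC1-like (conventional dendritic cells type 1: Xcr1, Clec9a), 60 and 66 cDC2-like (type 2: Cd209a, Clec10a), 27 and 36 mature DC-like (Ccr7, Fscn1), 179 and 82 pDC-like (plasmacytoid: Siglech, Ccr9), 163 and 182 macrophage-like (C1qa, C1qb) and 649 and 1166 monocyte-like (Ly6c2, Chil3). T-like and NK-like cells, which in mice lack transcription of H2-Aa, H2-Ab1 and H2-Eb1, gave a background for these genes. No class was found for 13.7% of wild-type and 15.9% of knockout cells. The cDC2-like gate was the least secure, with 63.3% and 66.7% of its cells at its limit, and a median of 2 markers of the best other class against 5 of its own.

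The classical chains H2-Aa, H2-Ab1 and H2-Eb1 were highest in conventional dendritic cells and lowest in plasmacytoid dendritic cells. UMIs were summed over the cells of a class and scaled to CPM, the count of a gene per 1000000 UMIs of that class. Their summed level was 25313 CPM in wild-type and 22242 CPM in knockout cDC2-like cells. In cDC1-like cells it was 20925 and 19963 CPM. Mature DC-like cells had 11106 and 9989 CPM, and B-like cells 9036 and 8250 CPM. Macrophage-like cells followed with 5067 and 5736 CPM, monocyte-like cells with 3777 and 4344 CPM, and pDC-like cells with 3063 and 2117 CPM. The order of the 7 classes was the same in both libraries, and the highest was 8.26-fold above the lowest in the wild-type library and 10.5-fold in the knockout library.

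H2-Aa, the alpha chain of I-A, was 8153 and 7216 CPM in cDC2-like cells against 1309 and 947 CPM in pDC-like cells. H2-Ab1, its beta chain, was 9767 and 8507 CPM in cDC2-like cells but 2567 and 1805 CPM in mature DC-like cells, so that in the mature cells it stood below H2-Aa, at 4651 and 4562 CPM. H2-Aa was also the higher in B-like cells, at 3474 and 3053 CPM against 2881 and 2742 CPM of H2-Ab1. The same held in pDC-like cells, where H2-Ab1 was 1095 and 745 CPM. The relation was the reverse in the conventional, macrophage-like and monocyte-like classes, where H2-Ab1 was the higher of the pair in both libraries. Since 3' capture differs between genes, this compares the order of 2 genes across classes and not their amounts.

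H2-Eb1, the beta chain of I-E, took 29.2% of the 3 genes' UMIs in wild-type cDC1-like, 29.2% in cDC2-like, 29.7% in B-like and 30.2% in macrophage-like cells. Its share was 25.0% [24.5, 25.6] in monocyte-like and 21.5% [20.4, 22.7] in pDC-like cells. It was 35.0% [33.5, 36.6] in mature DC-like cells. The knockout library gave the same order at its ends, 20.1% in pDC-like and 36.3% in mature DC-like cells, and 25.0% in monocyte-like cells.

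Cd74 followed the classical chains. It reached 17342 and 16107 CPM in cDC2-like cells and 3550 and 2864 CPM in pDC-like cells. Its share of all UMIs of Cd74 and the classical chains ran from 39.3% in wild-type cDC1-like to 53.7% in wild-type pDC-like cells, and from 39.5% to 57.5% in the same classes of the knockout library. The share was lowest in cDC1-like and highest in pDC-like cells in both libraries.

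Ciita, the coactivator, was counted far less often and was also highest in the conventional dendritic classes and lowest in pDC-like cells. It was 369 [329, 413] and 342 [304, 384] CPM in cDC2-like cells, 278 and 292 CPM in cDC1-like cells, and 139 and 125 CPM in B-like cells. Monocyte-like cells had 88.5 and 101 CPM. Macrophage-like cells had 41.3 and 47.8 CPM although their classical chains were above those of monocyte-like cells, so these neighbours changed place. pDC-like cells had 31.5 [23.4, 41.6] and 21.8 [12.2, 36.0] CPM, with overlapping intervals. Mature DC-like cells had 122 [86.8, 165] CPM in the wild-type and 22.9 [10.5, 43.4] CPM on 9 UMIs in the knockout library. In the knockout library they could thus not be told apart from pDC-like cells.

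H2-DM, the peptide exchange factor, was highest in cDC2-like cells for H2-DMa, at 1194 and 1249 CPM, and lowest in mature DC-like cells, at 252 and 183 CPM. Monocyte-like cells, low in classical chains, had as much H2-DMa (464 and 634 CPM) as B-like cells (439 and 420 CPM) or more. pDC-like cells, with 419 and 492 CPM, were also close to B-like cells. Of the 2 beta chains, B-like cells held more UMIs of H2-DMb2, at 345 and 326 CPM, beside 104 and 92.3 CPM of H2-DMb1. All other classes but the mature DC-like one had the opposite balance.

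The share of H2-DMb2 among the UMIs of the 2 beta chains separated the classes. It was 76.8% [75.7, 77.9] in wild-type and 78.0% [74.9, 80.8] in knockout B-like cells. Mature DC-like cells, at 71.7% [57.7, 83.2] of 53 UMIs and 69.4% [54.6, 81.7] of 49 UMIs, could not be told apart from them. cDC2-like cells had 19.3% and 17.6%, cDC1-like cells 9.02% and 10.6%, and macrophage-like cells 6.01% and 4.77%. The 2 genes are close paralogs, and reads they share may have been split or dropped in counting, so the shares describe the deposited counts.

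H2-O, the inhibitor of H2-DM, was highest in B-like cells. H2-Oa was 201 and 178 CPM and H2-Ob 418 and 368 CPM in B-like cells. H2-Oa was 74.5 and 85.3 CPM in cDC1-like, 97.1 and 87.3 CPM in cDC2-like and 69.4 and 91.7 CPM in pDC-like cells, whose intervals overlapped. H2-Ob was 125 and 97.3 CPM in cDC1-like and 75.5 and 48.9 CPM in cDC2-like cells. In pDC-like cells H2-Ob had 24 UMIs (15.1 CPM) in the wild-type library and 0 in the other, where a count of 0 allows up to 4.37 CPM. In pDC-like cells the alpha chain was thus present at the levels of conventional dendritic cells while the beta chain lay below those of both conventional classes.

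In macrophage-like cells H2-Oa stood at 5.59 and 2.19 CPM and H2-Ob at 4.75 and 4.92 CPM, and in monocyte-like cells at 5.32 and 5.85 CPM and 8.05 and 4.27 CPM. T-like cells with at most 1 marker of any class of another lineage held 9.86 and 9.83 CPM of H2-Oa and 8.55 and 5.09 CPM of H2-Ob. H2-O in macrophage-like and monocyte-like cells lay below that T-like level. With the myeloid cells held to the same limit on markers it also lay below it, except for H2-Ob in knockout macrophage-like cells (6.30 CPM on 15 UMIs). NK-like cells under that limit held 15.3 and 8.96 CPM of H2-Oa and 4.01 and 2.52 CPM of H2-Ob. The margin-gate H2-Ob levels of both myeloid classes lay above that NK-like level in both libraries. These T-like and NK-like levels are given for comparison and not as a blank. H2-O made up 41.1% and 39.4% of the UMIs of H2-O and H2-DM together in B-like cells, 10.2% and 9.26% in cDC1-like, 6.73% and 4.71% in cDC2-like and 1.55% and 0.889% in monocyte-like cells.

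**Figure D1:**
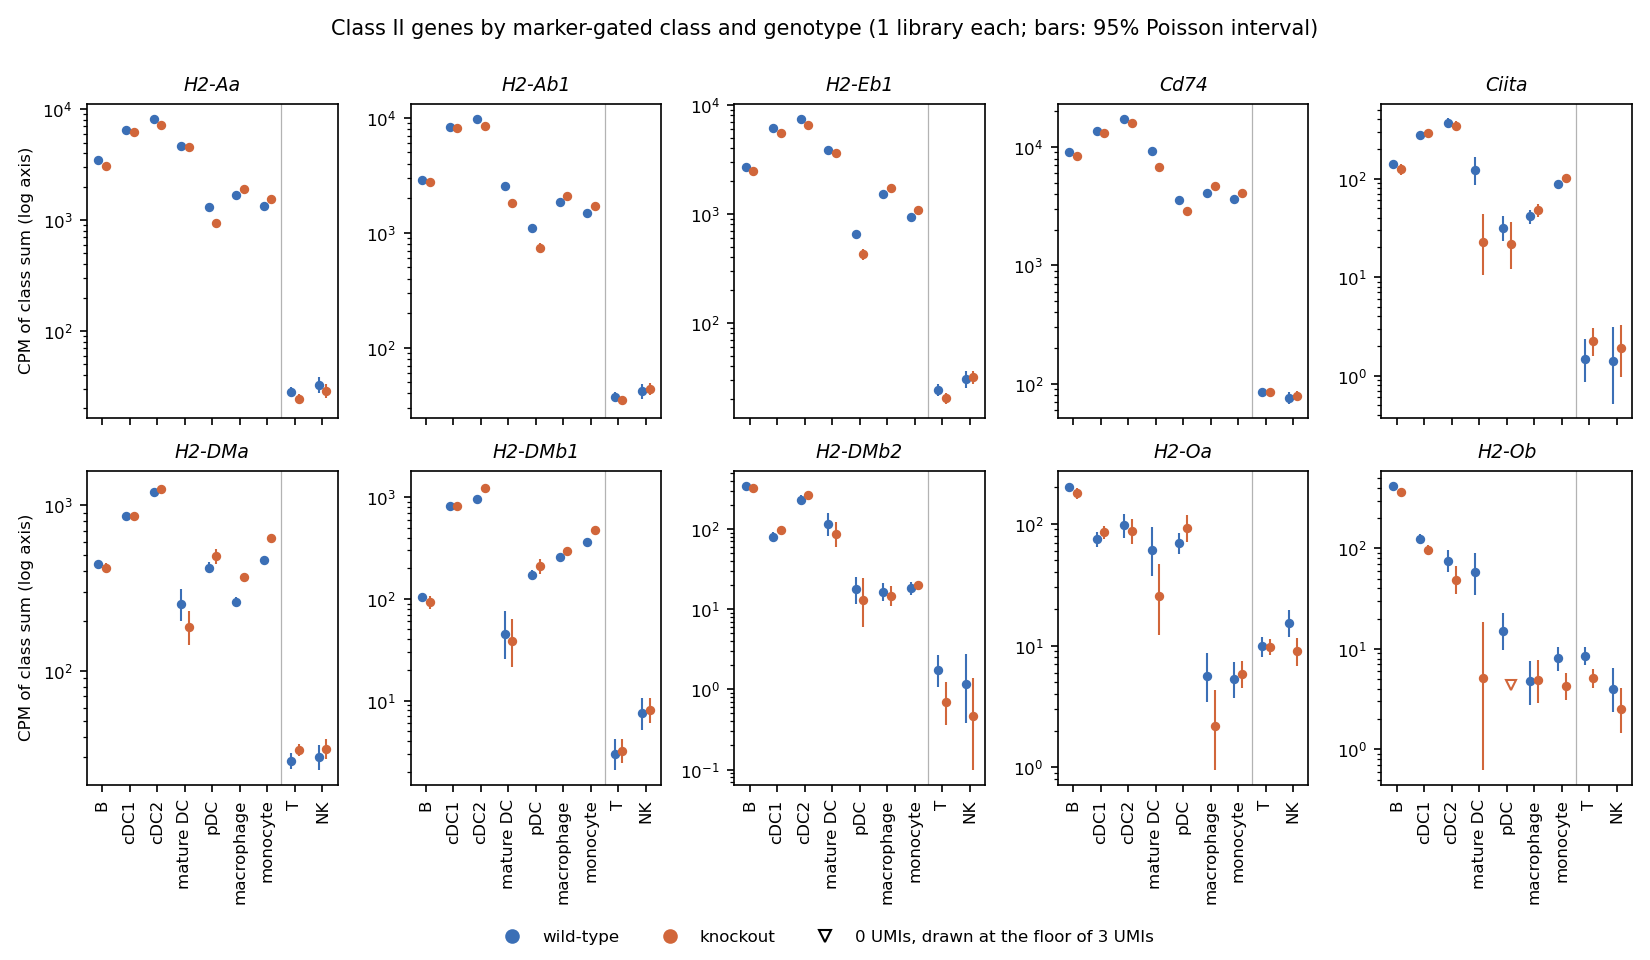
CPM on a log axis for each of the 10 genes by class, wild-type (blue) and knockout (orange), 1 library each; bars are 95% Poisson intervals and the triangle marks 0 UMIs drawn at the floor of 3 UMIs. T and NK cells, right of the line, hold at most 1 marker of any class of another lineage. The classical chains and Cd74 peak in cDC2-like cells in both genotypes, while H2-DMb2, H2-Oa and H2-Ob peak in B-like cells.

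**Figure D2:**
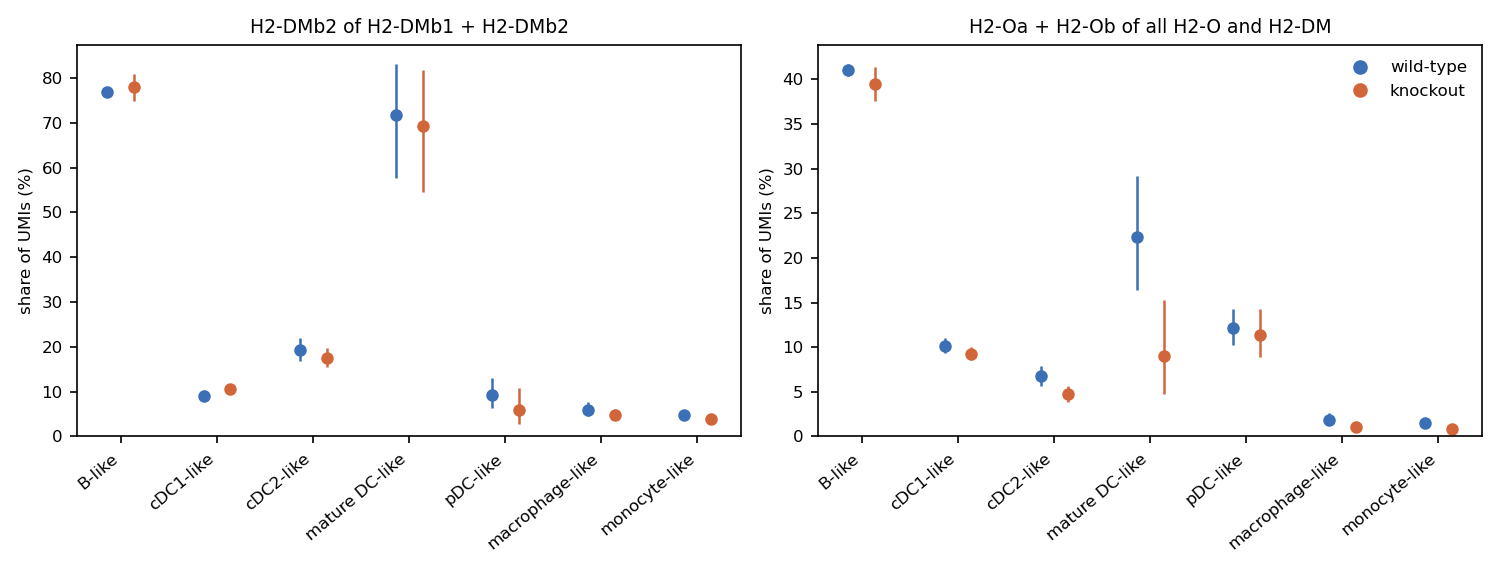
Share of H2-DMb2 among H2-DMb1 and H2-DMb2 UMIs (left) and of H2-Oa and H2-Ob among all H2-O and H2-DM UMIs (right), in percent, by class and genotype, with exact Clopper-Pearson 95% intervals. B-like cells are highest in both panels, and mature DC-like cells lie with them only in the left one.

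The share of cells with a UMI also separated the classes. With every cell thinned to 1000 UMIs, H2-Aa was found in 94.4% of wild-type and 94.2% of knockout B-like cells and in 100% of cDC1-like cells of both. It was found in 34.2% [30.6, 38.0] and 38.4% [35.6, 41.3] of monocyte-like cells and in 53.6% and 43.9% of pDC-like cells. In NK-like cells the share was 3.89% and 3.44%, and in T-like cells of the margin gate 8.49% and 6.68%. Without thinning the shares depend on depth, since the median was 3350 UMIs in wild-type B-like and 18359 in wild-type cDC1-like cells.

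Cells between classes held intermediate or higher levels. The 97 wild-type and 163 knockout cells whose leading classes were cDC2 and monocyte had 20615 and 18020 CPM of the classical chains, near the conventional dendritic classes. The 129 and 219 cells between monocyte and macrophage had 8253 and 10336 CPM, above both classes they lie between. The gate thus leaves out myeloid cells rich in class II.

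Whether RNA released by B cells could set these levels was checked next, because B-like cells were 32.5% of wild-type but 3.88% of knockout cells. RNA from 1 source keeps its genes in 1 ratio, so B-cell genes outside the gate give the class II level expected from it. With Fcer2a, Cr2, Vpreb3 and Cd22 the expected classical level was 0.480% of the measured one in wild-type and 0.201% in knockout cDC1-like cells. It was 0.266% and 0.0684% in cDC2-like, 2.60% and 1.49% in macrophage-like and 1.71% and 0.531% in monocyte-like cells. These shares rest on few UMIs of the 4 genes. They had 22 and 9 UMIs in cDC1-like, 5 and 1 in cDC2-like, 42 and 24 in macrophage-like and 40 and 19 in monocyte-like cells. The expected shares, also those for H2-O below, thus carry a counting error that is not given. In pDC-like cells these 4 genes had 7 and 0 UMIs, and the expected share was 1.62% and 0%.

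With Ighm added the expected shares were 1.79% and 2.09% in cDC1-like, 1.39% and 0.839% in cDC2-like, 4.50% and 3.56% in macrophage-like and 6.70% and 4.13% in monocyte-like cells. Ighm was 925 and 765 CPM in pDC-like cells, which held 7 and 0 UMIs of the other 4 B-cell genes, so with Ighm the expected share there was 79.4% and 107% and has no use as a B-cell measure. For H2-O the outcome differed from that for the classical chains. Without Ighm, B-cell RNA would give 27.0% of wild-type and 8.50% of knockout H2-Oa UMIs in monocyte-like cells, and 37.1% and 24.1% of those of H2-Ob. In macrophage-like cells the shares were larger, 52.4% and 84.5% for H2-Oa and 128% and 77.8% for H2-Ob. In T-like cells with at most 1 marker of any class of another lineage they were 11.3% and 4.62% for H2-Oa and 27.4% and 18.3% for H2-Ob. In NK-like cells under that limit they were 6.91% and 5.04% for H2-Oa and 55.8% and 36.8% for H2-Ob. Whether T-like and NK-like cells make H2-O was not tested.

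For the classical chains T-like and NK-like cells gave a background whose level depended on the gate. T-like cells with at most 1 marker of any class of another lineage, a gate added after the data were seen, held 89.8 CPM of the classical chains in the wild-type library and 80.1 CPM in the knockout library. NK-like cells under that gate held 105 and 104 CPM. These near-equal levels stood beside unequal levels of the 5 B-cell genes, which were 153 and 79.7 CPM in the T-like cells. Without Ighm, B-cell RNA would give 53.6% and 24.3% of the classical level in these T-like cells, and 43.6% and 18.6% in the NK-like cells. With Ighm the expected level in the T-like cells was 431% and 282% of the measured one. The part of B-cell RNA in this background was not tested. With all classes under that gate, H2-Aa, H2-Ab1 and H2-Eb1 were 14.2-fold to 253-fold above the higher of the T-like and NK-like levels over the 7 presenting classes and both libraries. The gate leaves out T-like and NK-like cells that carry markers of other lineages. Its background therefore does not stand for all sources, and the folds are in part set by the gate.

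Under the margin gate alone T-like cells held 1814 and 1104 CPM, and the same folds ran from 1.21 to 21.2. Of these UMIs 98.2% in the wild-type library and 97.7% in the knockout library sat in the 47.5% and 49.2% of T-like cells with more than 1 marker of a class of another lineage, at a median of 8389 and 8346 UMIs against 5126 and 4822 in the rest. Some of those markers, such as Ly6c2 and Plac8, are also made by T cells, so that gate removes true T cells too. Mixed droplets were not called as such, and their part in the T-like level was not tested.

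**Figure D3:**
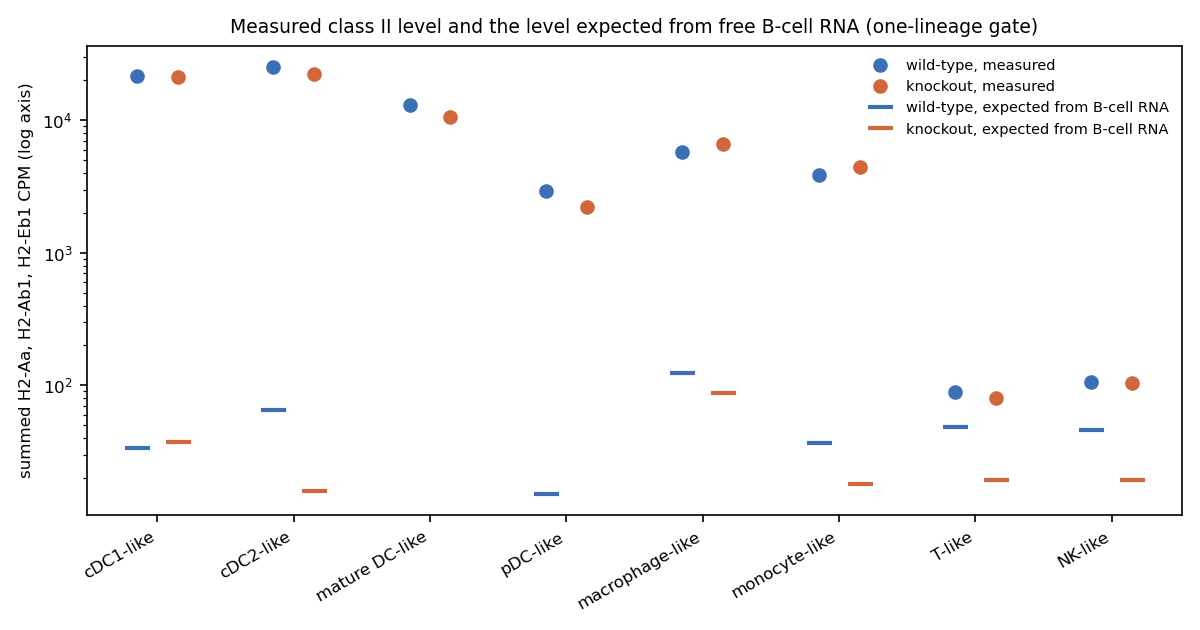
Summed CPM of H2-Aa, H2-Ab1 and H2-Eb1 (log axis) by class under the one-lineage gate, measured (points) and expected from Fcer2a, Cr2, Vpreb3 and Cd22 (dashes; none drawn where these had 0 UMIs), wild-type blue and knockout orange. Every presenting class lies far above its dash, and T-like and NK-like cells lie near 100 CPM in both genotypes.

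Between genotypes the classical chains were compared as sums over the presenting classes with at least 50 cells per library. The summed knockout to wild-type ratio on the log2 scale was 0.20 [0.18, 0.22] in monocyte-like and 0.18 [0.15, 0.21] in macrophage-like cells. It was -0.07 [-0.08, -0.05] in cDC1-like, -0.13 [-0.16, -0.11] in B-like and -0.19 [-0.21, -0.16] in cDC2-like cells. pDC-like cells had the value farthest from 0, -0.53 [-0.62, -0.45]. None of these summed ratios reached 1.5-fold under the margin gate. With the looser gate of the alternatives the pDC-like value was -0.588, just past 1.5-fold, and with the margin-gate T-like level subtracted the monocyte-like value was 0.72. With 1 library each, how much 2 libraries of a genotype would differ is unknown.

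The same rule of size was applied to every gene: a ratio of at least 1.5-fold with an interval excluding 1, for genes with 20 UMIs or more over both libraries. All 10 members were measured in each class. No member was called higher in any of the 6 classes, where the rule called 3.91% of all genes higher in B-like, 5.42% in cDC1-like, 5.25% in cDC2-like, 2.78% in pDC-like, 2.77% in macrophage-like and 3.08% in monocyte-like cells. No member was called lower in B-like or cDC1-like cells, against 3.56% and 2.05% of all genes. It called 1 member lower in cDC2-like (2.83% of all genes), 2 in pDC-like (2.32%), 1 in macrophage-like (4.05%) and 1 in monocyte-like cells (3.79%).

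The median ratio of the 10 members was -0.14 in B-like cells beside -0.05 over all genes, -0.01 beside 0.08 in cDC1-like and -0.13 beside 0.07 in cDC2-like cells. It was -0.45 beside 0.04 in pDC-like, 0.18 beside -0.02 in macrophage-like and 0.19 beside -0.06 in monocyte-like cells. All 10 members were below 0 in B-like cells, and 9 of 10 were above 0 in monocyte-like cells.

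The calls rested mostly on H2-O. H2-Ob fell by 0.63 [-1.23, -0.04] in cDC2-like cells (63 and 42 UMIs) and by 0.92 [-1.51, -0.33] in monocyte-like cells (56 and 46 UMIs) on the log2 scale. H2-Oa fell by 1.35 [-2.75, -0.11] in macrophage-like cells, on 20 and 8 UMIs. The free RNA measure without Ighm gives 10.5 of those 20 and 6.76 of those 8 H2-Oa UMIs, and 20.8 of the 56 and 11.1 of the 46 H2-Ob UMIs in monocyte-like cells. Both calls thus concern levels under the T-like ones given above. For H2-Ob the monocyte-like levels, 8.05 and 4.27 CPM, lay above the NK-like ones, 4.01 and 2.52 CPM. The part of B-cell RNA in these calls was not tested. In pDC-like cells H2-Ob had 24 and 0 UMIs, a log2 ratio of -1.79 when the 0 is set to the floor of 3 UMIs. H2-Eb1, the only classical chain called, fell by 0.63 [-0.83, -0.44] in pDC-like cells, on 1045 and 292 UMIs.

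Under the one-lineage gate 58 of the 60 pairs of a member and a class had 20 UMIs or more, and 0 members were called lower in each class (3.34% of all genes in B-like, 1.91% in cDC1-like, 2.65% in cDC2-like, 2.13% in pDC-like, 4.49% in macrophage-like and 3.44% in monocyte-like cells). Of the 5 calls, H2-Ob in pDC-like (13 and 0 UMIs) and H2-Oa in macrophage-like cells (10 and 5 UMIs) had too few UMIs there to be called. The other 3 kept their direction and missed the rule, with H2-Eb1 in pDC-like cells at -0.44 [-0.64, -0.25], H2-Ob in cDC2-like cells at -0.55 [-1.16, 0.04] and H2-Ob in monocyte-like cells at -0.46 [-1.14, 0.24]. That gate called 3 other ratios, all higher and in myeloid cells. They were H2-DMa in macrophage-like cells, 0.59 [0.45, 0.73], and H2-DMb2, 0.63 [0.23, 1.03], and H2-Oa, 0.98 [0.19, 1.83] on 18 and 57 UMIs, in monocyte-like cells. That H2-Oa level, 3.04 and 5.99 CPM, was below the T-like one of 9.86 and 9.83 CPM, and the free RNA measure without Ighm gives 27.7% and 7.06% of it. It called 2.78% of all genes higher in macrophage-like and 3.28% in monocyte-like cells. No member was called higher in the other 4 classes, against 3.74% of all genes in B-like, 5.11% in cDC1-like, 5.16% in cDC2-like and 2.87% in pDC-like cells.

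H2-DMa gave the highest ratio to the wild-type of the members with over 100 UMIs in both libraries. In macrophage-like cells it was 261 and 370 CPM, a ratio of 0.50 [0.38, 0.62], and in monocyte-like cells 464 and 634 CPM, 0.45 [0.39, 0.51]. Both values lay under 1.5-fold but apart from those of the classical chains in the same cells, 0.17 to 0.21. H2-DMb1 was 0.38 [0.31, 0.45] in monocyte-like and 0.36 [0.23, 0.50] in cDC2-like cells. In pDC-like cells H2-DMa was 0.23 [0.04, 0.42] while the classical chains ran from -0.47 to -0.63. Ciita lay within 1.5-fold in all 6 classes, at 0.19 [0.05, 0.34] in monocyte-like, 0.21 [-0.11, 0.54] in macrophage-like and -0.53 [-1.47, 0.33] in pDC-like cells.

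**Figure D4:**
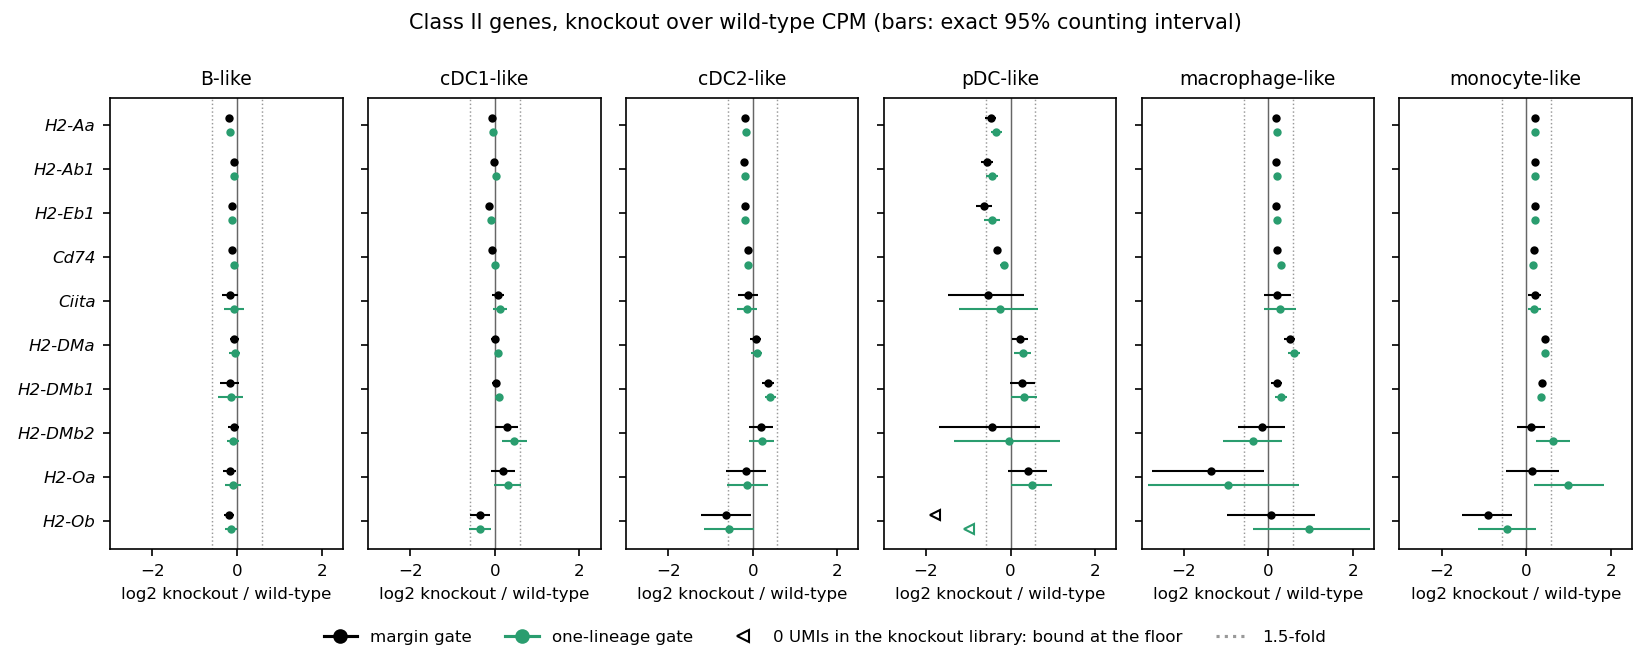
Log2 ratio of knockout over wild-type CPM for the 10 genes in the 6 classes with at least 50 cells per library, under the margin gate (black) and the one-lineage gate (green), with exact 95% counting intervals; open arrowheads are bounds where the knockout library had 0 UMIs and dotted lines mark 1.5-fold. The classical chains and Cd74 lie right of 0 in macrophage-like and monocyte-like cells and left of 0 in pDC-like cells.

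Mature DC-like cells, 27 and 36 in number, were too few for calls. Ciita had 40 and 9 UMIs (122 and 22.9 CPM), with 22.5% and 44.4% of them in 1 cell. H2-Oa had 20 and 10 UMIs and H2-Ob 19 and 2 UMIs. Their classical sum gave a ratio of -0.15 [-0.22, -0.09], with 15.5% of its knockout UMIs in 1 cell. In this class the rule would call 11.4% of all genes higher and 2.85% lower.

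Genes that act on the class II pathway were described by lists. Among the interferon gamma signalling genes, Irf1, a factor that drives inducible Ciita, was called higher in B-like, cDC1-like, cDC2-like, macrophage-like and monocyte-like cells, and not in pDC-like cells. Irf1 was 175 and 290 CPM in monocyte-like cells, a log2 ratio of 0.72 [0.63, 0.82], and 65.1 and 136 CPM in B-like cells, 1.06 [0.86, 1.26]. In pDC-like cells its ratio was 0.28 [-0.02, 0.57]. In macrophage-like cells the call was lost under the one-lineage gate, where the ratio was 0.44 [0.13, 0.76] against 0.62 [0.36, 0.87]. Of Ifngr1 and Ifngr2, the receptor chains, and Jak1 and Jak2, the kinases of the receptor, the one call in these 6 classes was Jak2, lower in B-like cells (-0.59 [-0.94, -0.26]). Under the one-lineage gate Jak2 was also called higher in cDC2-like cells (0.59 [0.21, 0.97]).

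Of 8 endosomal proteolysis genes, Ctse, the aspartic protease cathepsin E, was called lower in 5 of the 6 classes. Its ratio was -1.34 [-1.68, -1.02] in B-like, -1.51 [-2.02, -1.02] in cDC1-like, -1.26 [-1.76, -0.80] in pDC-like and -1.09 [-1.39, -0.79] in monocyte-like cells, and -1.71 [-3.32, -0.32] on 19 and 6 UMIs in cDC2-like cells. In macrophage-like cells it had 34 and 22 UMIs and was not called. Ctsl, cathepsin L, was called lower in monocyte-like cells (-0.63 [-0.71, -0.54]). Ctss, cathepsin S, which trims the invariant chain in dendritic and B cells, ran from -0.21 to 0.16 over the 6 classes and was not called. Under the one-lineage gate this list gained calls. It had 2 genes called higher in cDC1-like and 1 in B-like cells, against 0 each under the margin gate. Called lower were 2 in B-like and 3 in monocyte-like cells, against 1 and 2.

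Of 10 enhanceosome and lineage factors, Nfya and Nfyb, subunits of NF-Y, were called higher in cDC1-like cells (0.78 [0.25, 1.32] and 0.64 [0.22, 1.06]), and Rfxank, an RFX subunit, lower in pDC-like cells on 23 and 3 UMIs. Of the 3 costimulation genes, Cd40 was called higher in macrophage-like (1.12 [0.68, 1.56]) and monocyte-like cells (0.81 [0.59, 1.04]), Cd86 in pDC-like cells on 11 and 12 UMIs and Cd80 in B-like cells on 16 and 9 UMIs. Under the one-lineage gate the calls of Nfyb (0.53 [0.05, 1.04]) and Rfxank (19 and 3 UMIs) were lost, and Cd86 in pDC-like (7 and 12 UMIs) and Cd80 in B-like cells (7 and 2 UMIs) had too few UMIs to be called. That gate also gained calls among the 10 factors. It called 1 higher in B-like and 1 lower in cDC2-like cells, against 0 each under the margin gate. In cDC1-like cells 2 factors were called higher under either gate. In the list of turnover genes and other class II loci, where 5 of 9 names were found, Cd83, which protects class II from turnover, was called higher in monocyte-like cells (0.71 [0.46, 0.96]) and lower in cDC2-like cells (-1.40 [-2.27, -0.58]). March1, the ligase that removes class II from the surface, was called in none of the 6 classes under the margin gate. The one-lineage gate called 1 gene of this list lower in cDC1-like cells, where the margin gate called 0.

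Cxcl9, a chemokine induced by interferon gamma, was used to split myeloid cells. After thinning to 1000 UMIs it was found in 7.40% [5.50, 9.69] of wild-type and 15.5% [13.5, 17.7] of knockout monocyte-like cells. It was found in 5.52% [2.56, 10.2] and 12.6% [8.18, 18.4] of macrophage-like cells, which are 9 and 23 cells. Median depth with and without Cxcl9 was 10188 and 9652 UMIs in wild-type and 8491 and 8604 in knockout monocyte-like cells.

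The classical chains, Cd74 and the H2-DM chains H2-DMa and H2-DMb1 were higher in the Cxcl9 cells of both classes and libraries. H2-DMb2, H2-Oa and H2-Ob had intervals that included 0, except H2-DMb2 in knockout monocyte-like cells (0.95 [0.48, 1.40]) and H2-Ob in wild-type macrophage-like cells, which had 0 UMIs with Cxcl9. In wild-type monocyte-like cells the classical chains were 6638 CPM with and 3543 CPM without Cxcl9, a log2 ratio of 0.91 [0.85, 0.96]. In knockout monocyte-like cells they were 5045 and 4214 CPM, 0.26 [0.23, 0.29]. Ciita was 175 and 81.5 CPM in the wild-type (1.10 [0.76, 1.42]) and 169 and 88.8 CPM in the knockout cells (0.93 [0.73, 1.12]). H2-DMa was 799 and 436 CPM, and 875 and 590 CPM. In macrophage-like cells the classical ratio was 0.67 [0.58, 0.75] and 0.59 [0.53, 0.65], and that of Ciita 0.34 [-0.90, 1.36] and 0.83 [0.20, 1.41].

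Within monocyte-like cells without Cxcl9 the knockout to wild-type ratio was 0.25 [0.23, 0.27] for the classical chains and 0.43 [0.37, 0.50] for H2-DMa. Within those with Cxcl9 it was -0.40 [-0.45, -0.34] and 0.13 [-0.03, 0.29]. The classical chains thus lay on opposite sides of 0 in the 2 subsets, the second of which held 48 wild-type cells. In macrophage-like cells the ratios were 0.14 [0.11, 0.17] without and 0.07 [-0.03, 0.17] with Cxcl9.

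**Figure D5:**
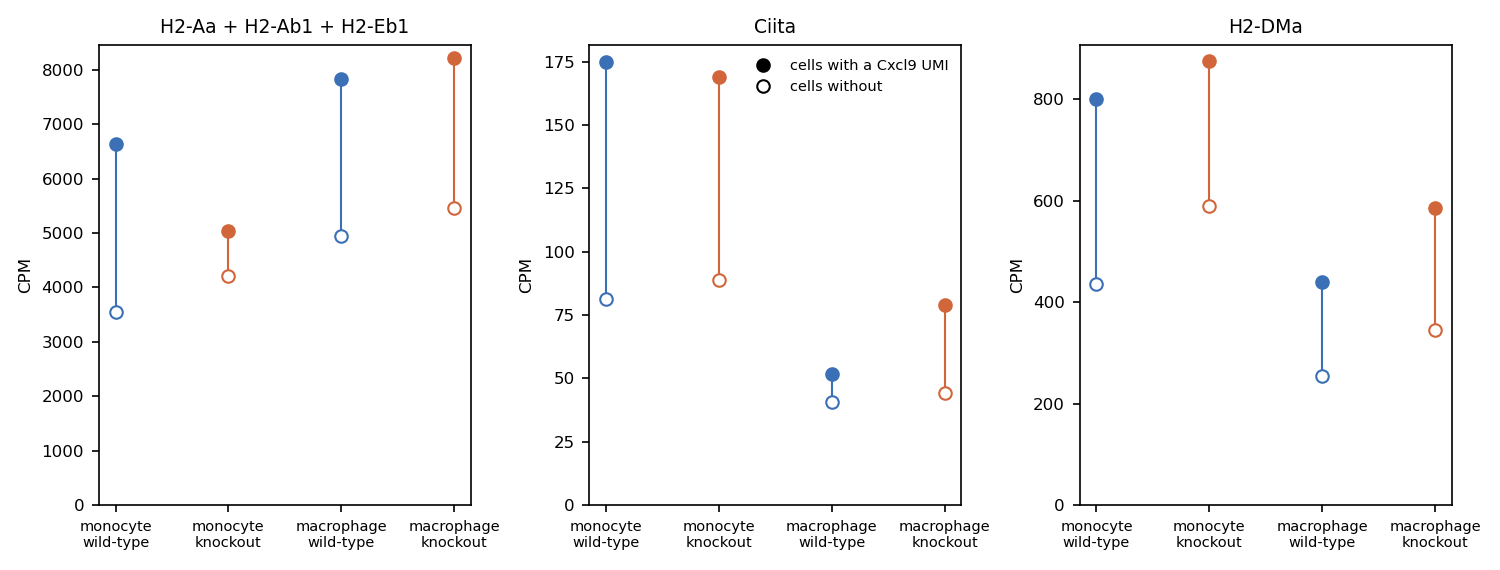
CPM of the summed classical chains, Ciita and H2-DMa in monocyte-like and macrophage-like cells with (filled) and without (open) a Cxcl9 UMI after thinning, wild-type blue and knockout orange; no error is drawn and the intervals are in the text. Filled points lie above open ones in every pair, and the classical chains are farthest apart in wild-type monocyte-like cells among the monocyte pairs.

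B-like cells were split by Cd83, which activation induces. A UMI was found after thinning in 8.03% of wild-type and 9.49% of knockout B-like cells. The classical chains were 9373 CPM with and 9008 CPM without Cd83 in the wild-type (0.06 [0.03, 0.09]), and 10245 and 8073 CPM in the knockout library (0.34 [0.27, 0.42]). Ciita was 154 and 138 CPM in the wild-type. In the 41 knockout cells with Cd83 it had 9 UMIs (57.6 CPM), against 131 CPM in the rest.

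The genes whose level followed the classical chains most closely were ranked by Pearson correlation of log2(CPM + 1) with the mean of the 3 chains over 20 points, 10 classes in 2 libraries, among 3137 genes that reached 100 CPM in at least 1 point. The points of a library share its depth and free RNA, and the values are a description. The T-like points come from the margin gate, where 98.2% and 97.7% of the classical UMIs sat in cells with markers of another lineage. In the knockout neutrophil-like point 1 cell held 78.5% of the classical UMIs. What such cells do to the ranking was not tested. Cd74 ranked 1 at 0.987 and Ciita 2 at 0.925. H2-DMb2 reached 0.890, H2-DMa 0.865 and H2-DMb1 0.752 (rank 19), while H2-Ob was at 0.636 (rank 66) and H2-Oa at 0.519 (rank 169). The 6 other genes nearest were Plekho1 at 0.906, Ifi30, a thiol reductase of the endosome, at 0.891, Fgd2 at 0.861, Wdfy4, which was also a cDC1 marker of the gate, at 0.824, Irf5 at 0.797 and Pkib at 0.795. Ifi30 was 1488 and 1538 CPM in cDC2-like and 223 and 334 CPM in B-like cells.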

How the data were processed

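The deposited values are whole-number UMI counts that the authors left unnormalized, with a total of 98438084 for the wild-type library and 112544655 for the knockout library. Per the submitters' processing notes, Cell Ranger and STAR were used with mm10. The file headers carry version 5.0.0. The labels' protocol names v3 and the series design v3.1 chemistry. The 10 genes, the lists, the classes and the rules were chosen with earlier results of these data known.

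Cells with at least 500 genes, 1000 UMIs and at most 10% mitochondrial UMIs were kept. The libraries shared 42 barcodes. No doublet caller was used in the main values. Counts were summed per class and scaled to CPM. Ratios carry exact conditional binomial, levels Poisson and shares Clopper-Pearson intervals. Named genes were all members, up to 4 per list with the interval bound farthest from 0 among those called, and the 6 nearest by correlation, plus Ctss and March1, chosen after their values were seen. A gene of the interferon gamma signalling list is not reported here. Clusters came from scanpy 1.11.5, igraph 0.11.9 and scikit-learn 1.9.0, and intervals from scipy 1.17.1 in Python 3.11.15.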

Additional observations from a re-analysis of the deposited data

How the results depend on the processing

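No paired analysis was possible because each genotype had 1 library. Of the results on the summed chains and on counts of called members, 103 values under the alternatives stayed within the limits set and 58 moved; the causes were not tested. The summed log2 ratio kept its sign under every alternative run in B-like, cDC2-like, pDC-like, macrophage-like and monocyte-like cells, and passed 0 in cDC1-like cells. With the looser gate it was -0.20 in B-like, -0.041 in cDC1-like, 0.28 in macrophage-like, 0.13 in monocyte-like and -0.588 in pDC-like cells. With the stricter gate it was -0.039, 0.0041, 0.21, 0.30 and -0.43 in those classes, while cDC2-like cells, 22 per library, gave no value. With Leiden clusters made without the members it was -0.0093 in B-like, 0.041 in cDC1-like, -0.080 in cDC2-like and 0.22 in monocyte-like cells, and no cluster was named for macrophages or mature dendritic cells. Cluster names and gate classes are not the same cells, since the cDC2 cluster held monocyte markers almost as often as its own. Without the cells of the highest Scrublet scores (1020 and 1015; the caller itself marked 379 and 0) it was -0.039 in cDC1-like, 0.13 in monocyte-like and -0.35 in pDC-like cells. Centred on the median gene it was -0.080 in B-like, -0.14 in cDC1-like, -0.26 in cDC2-like and 0.26 in monocyte-like cells. With cells thinned to 1000 UMIs it was -0.044, -0.093, -0.32, 0.27, 0.25 and -0.21 in B-like, cDC1-like, cDC2-like, macrophage-like, monocyte-like and pDC-like cells. Subtracting B-cell RNA, measured with Ighm, gave 0.24 in monocyte-like cells. It gave no value in pDC-like cells, where Ighm made the expected knockout level 107% of the measured one. The measure without Ighm was not subtracted. Subtracting the T-like level of the margin gate, much of it in cells with markers of other lineages, gave -0.015, -0.019, -0.15, 0.51, 0.72 and -0.30 in the same 6 classes. The one-lineage gate, added after the data were seen, gave -0.029 in cDC1-like and -0.40 in pDC-like cells.

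Counts of members called higher were 1 in macrophage-like cells with the looser gate, without the highest Scrublet scores and with the one-lineage gate, and 2 in monocyte-like cells with the last. Counts called lower were 0 in cDC2-like cells with the looser gate, thinned cells, the 2-fold rule and the one-lineage gate. In macrophage-like cells they were 2 with the looser gate and 0 with the stricter gate, thinned cells and the one-lineage gate. In monocyte-like cells they were 2 with the looser gate and with clusters, and 0 with thinned cells, the 2-fold rule and the one-lineage gate. In pDC-like cells they were 3 with the looser gate and centred on the median gene, 1 with clusters and with the 2-fold rule, and 0 with the stricter gate, without the highest Scrublet scores, with thinned cells and with the one-lineage gate. The ratio of H2-Ob in cDC2-like cells turned to 0.45 [-2.68, 4.03] in thinned cells. H2-O counts, often under 100 UMIs, limit what can be seen in myeloid cells. Shares of cells with a member's UMI moved without thinning in 129 of 140 cases.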

Other observations

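Neutrophil-like cells, which were not among the classes compared, held 787 CPM of H2-Aa, H2-Ab1 and H2-Eb1 together in the wild-type library (181 cells) and 7801 CPM in the knockout library (33 cells). In the knockout library 1 cell held 78.5% of these UMIs, and in the wild-type library 1 cell held 57.4%. Under the one-lineage gate the wild-type level was 222 CPM.

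Cells between the monocyte and macrophage classes had 75.9 CPM of Ciita in the wild-type and 136 CPM in the knockout library, and H2-DMa was 533 and 806 CPM. In the same cells Cxcl9 was 272 and 648 CPM. In the cells between cDC2 and monocyte, Ciita was 271 and 291 CPM and H2-DMa 1140 and 1246 CPM, while Cxcl9 was 65.1 and 408 CPM.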
